A study of Mus musculus with 8 samples.

Results

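Transcripts that mark blood and vessel cells were followed through 8 RNA libraries of sorted bone marrow stroma. The set holds genes of 5 lineages (erythroid, megakaryocyte, granulocyte, macrophage and endothelial) and was chosen by gene symbol from a list of 47. Of these symbols, 46 were found among the 52636 genes of the count matrix, 9 erythroid, 9 megakaryocyte, 13 granulocyte, 10 macrophage and 5 endothelial. Ahsp was not matched and is not analysed here. All 46 found members passed the filter on low counts.

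The study asked how blocking the lymphotoxin β receptor (LTβR) alters gene expression in leptin receptor positive (LEPR+) stromal cells of mouse marrow. C57BL/6 mice received 150 µg of immunoglobulin intravenously every week for 3 weeks. Control mice received HEL-Ig, an IgG1 against hen egg lysozyme, and the other mice received LTβR-Ig, a soluble decoy for the ligands of the receptor. There were 4 libraries in each group. Long bones were flushed and digested with collagenase, and cells carrying CD45 or Ter119 were removed on magnets. Living LEPR+ cells that carried neither blood nor endothelial antigens (CD45, Ter119; CD31, CD144) were then sorted and sorted again into lysis buffer, in both groups alike. Whether the libraries are separate mice is not in the labels, and the p-values below reflect the spread between these libraries alone.

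CD45 is carried by nearly all leukocytes, Ter119 by the later stages of the red cell lineage, and CD31 and CD144 by endothelial cells. Red cell precursors fill with globin mRNA as they mature, megakaryocytes store chemokines and carry the receptors that platelets use, and granulocytes make their granule proteins in successive stages. Marrow macrophages sit beside developing red cells and engulf the nuclei they expel, and sinusoidal endothelium lies against the LEPR+ cells. In bulk RNA, fewer cells of a type and less RNA per cell cannot be told apart.

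The libraries held between 52378101 and 64403177 gene counts. The marker of the sort, Lepr, lay between 3159 and 4498 CPM, where CPM is counts scaled to a common library size by TMM. The stromal chemokine gene Cxcl12 lay between 13393 and 21792 CPM. Together the members took between 2.19 and 6.00% of the scaled counts. In a quasi-likelihood test with edgeR, adjusted by Benjamini-Hochberg, 6 of 16045 genes differed between LTβR-Ig and control libraries.

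As examples, 5 members that each hold a match to a string named below are given with the bases before their start of transcription. They do not show what members that moved together share. Alas2 moved with the globin genes and Epor did not, and Gp5, S100a9 and C1qb moved with the other megakaryocyte, granule protein and complement genes. The sequences come from RefSeq on GRCm38.p6 and read 5′ to 3′ on the strand of the gene, cut where the annotated gene begins. Capitals mark exact matches on either strand to AGATAA (bound by GATA factors), CCACACCC (KLF factors), GAGGAA (PU.1), TTNNGCAA (C/EBP factors) and CAGGAAG (ETS factors). The PU.1 and ETS strings share the letters AGGAA.
Alas2, chrX:150547167-150547374, plus strand: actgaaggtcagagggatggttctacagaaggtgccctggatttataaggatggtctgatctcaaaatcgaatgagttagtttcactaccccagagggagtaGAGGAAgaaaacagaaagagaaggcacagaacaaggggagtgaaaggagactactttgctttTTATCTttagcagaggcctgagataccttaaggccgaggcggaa
Epor, chr9:21963577-21963826, minus strand: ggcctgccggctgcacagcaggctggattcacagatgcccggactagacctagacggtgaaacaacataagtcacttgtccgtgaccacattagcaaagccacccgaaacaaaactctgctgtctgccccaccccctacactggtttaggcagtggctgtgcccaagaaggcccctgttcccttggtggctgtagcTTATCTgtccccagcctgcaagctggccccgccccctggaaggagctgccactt
Gp5, chr16:30310782-30311031, minus strand: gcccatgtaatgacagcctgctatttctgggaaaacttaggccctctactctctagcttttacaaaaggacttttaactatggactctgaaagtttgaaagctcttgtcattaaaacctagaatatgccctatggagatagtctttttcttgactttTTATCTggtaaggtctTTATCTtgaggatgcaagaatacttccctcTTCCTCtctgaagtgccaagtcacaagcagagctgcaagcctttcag
S100a9, chr3:90695722-90695971, minus strand: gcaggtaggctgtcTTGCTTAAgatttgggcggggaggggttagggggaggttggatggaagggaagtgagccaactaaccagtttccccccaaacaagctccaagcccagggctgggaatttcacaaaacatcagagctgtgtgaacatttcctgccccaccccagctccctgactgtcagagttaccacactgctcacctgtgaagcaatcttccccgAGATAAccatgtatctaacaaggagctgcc
C1qb, chr4:136886201-136886450, minus strand: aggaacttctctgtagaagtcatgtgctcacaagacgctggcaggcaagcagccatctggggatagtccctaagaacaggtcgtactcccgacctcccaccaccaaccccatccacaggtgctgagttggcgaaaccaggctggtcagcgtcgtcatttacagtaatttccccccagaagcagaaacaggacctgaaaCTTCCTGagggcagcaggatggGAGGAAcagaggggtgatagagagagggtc

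Both Alas2 and Epor hold a GATA match on the minus strand, 86 and 54 bases before the RefSeq start, although their levels did not move together. For Alas2 that start lies 42 bases beyond the end of the stretch shown, which was cut at the annotated gene. Gp5 has GATA matches 93 and 77 bases and a PU.1 match 47 bases before its start. S100a9 holds a C/EBP and a GATA match, and C1qb an ETS and a PU.1 match. The globin genes Hba-a1, Hba-a2 and Hbb-bt, which moved with Alas2, hold no match to any of the strings, whereas Hbb-bs holds GATA, KLF and C/EBP matches. The megakaryocyte genes Ppbp, Gp1bb and Treml1 also hold none. Of the members, 36 had an entry in the promoter table. In windows of 250 bases, the GATA string was found in 3 of 8 erythroid members and 1 of 8 megakaryocyte members, against 9.99% of 32851 promoters. The C/EBP string was found in 5 of 11 granulocyte members, against 9.56% of all promoters. The ETS string was found in 6 of 11 granulocyte and 4 of 6 macrophage members (10.8% of all), and the PU.1 string in 7 of 11 and 4 of 6 (23.3% of all). The PU.1 string was also found in 5 of 8 megakaryocyte members. These matches are a description of letters and were not tested.

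Every lineage was present in every library, and the levels differed far more between libraries than between the groups. Summed over its members, the erythroid lineage stood at 17996, 15555, 47601 and 32032 CPM in control libraries 1 to 4 and at 15626, 21893, 36406 and 29868 CPM in LTβR-Ig libraries 1 to 4. The megakaryocyte lineage stood at 611.6, 650.3, 1430 and 2605 CPM in controls and at 900.2, 2093, 3634 and 1516 CPM in LTβR-Ig libraries. Control 2 and LTβR-Ig 1 were among the lowest 3 libraries in both, and the ranges of the groups overlapped.

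The granulocyte sum was 9253, 4520, 8272 and 10666 CPM in controls and 6026, 7608, 10263 and 6757 CPM in LTβR-Ig libraries. The macrophage sum was 1628, 1131, 2639 and 2505 CPM in controls and 1226, 1803, 3200 and 1952 CPM in LTβR-Ig libraries. The endothelial sum was 31.01, 17.75, 43.49 and 71.71 CPM in controls and 14.67, 26.38, 159.3 and 67.87 CPM in LTβR-Ig libraries. LTβR-Ig 3 was among the 2 highest libraries in all 5 lineages and control 4 among the 3 highest in all 5, whereas control 1 ranked lowest of 8 for megakaryocyte and sixth for granulocyte transcripts.

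**Figure D1:**
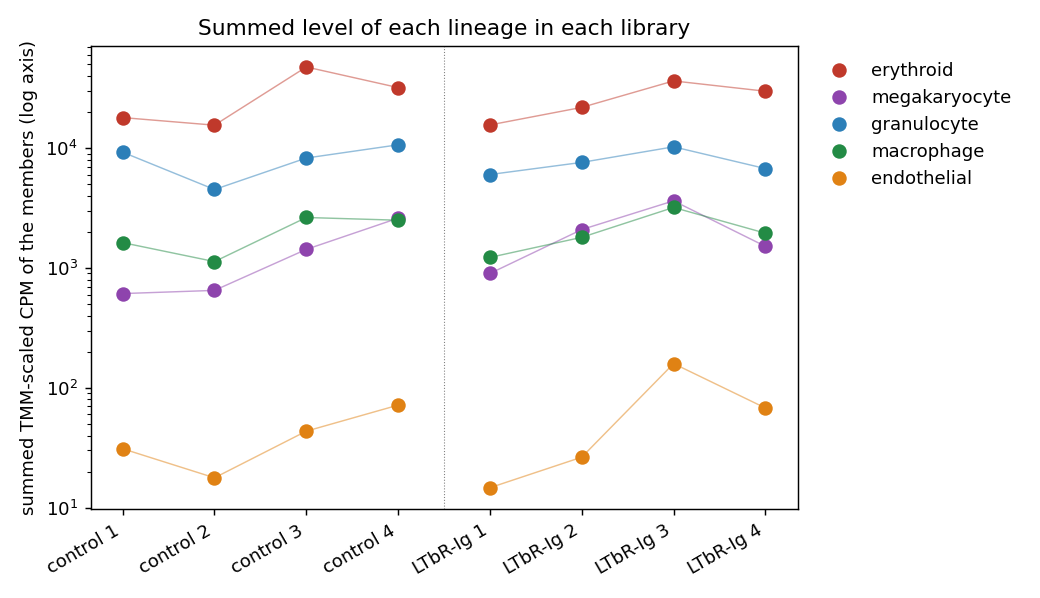
Summed TMM-scaled CPM of the members of each lineage in each library, on a log axis; lines join the points of a lineage within a group to guide the eye, and the libraries have no order. LTβR-Ig 3 is high and control 2 is low in every lineage, and the endothelial points span the widest range, from 14.67 to 159.3 CPM.

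The highest library exceeded the lowest 10.9-fold for endothelial, 5.94-fold for megakaryocyte, 3.06-fold for erythroid, 2.83-fold for macrophage and 2.36-fold for granulocyte transcripts. Within groups, the SD of log2 CPM had a median over members of 1.27 for endothelial, 0.92 for megakaryocyte, 0.80 for macrophage, 0.60 for erythroid and 0.56 for granulocyte genes. Over the 9412 genes with a mean of at least 10 CPM it was 0.31. The most variable member was Tek, the angiopoietin receptor of endothelium, at 1.89, and the steadiest was Gata1, an erythroid and megakaryocyte transcription factor, at 0.19.

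Hbb-bs, an adult β-globin gene, was the most abundant member. It stood at 8267, 7517, 23349 and 14819 CPM in controls and 7174, 10116, 17357 and 14055 CPM in LTβR-Ig libraries. Alas2, the first enzyme of red cell haem synthesis (ENSMUSG00000025270.13, chromosome X, 150547375 to 150570638), stood at 603.6, 649.1, 1665 and 1112 CPM in controls and 590.1, 728.6, 1291 and 1194 CPM in LTβR-Ig libraries. Both genes were highest in control 3 and lowest in LTβR-Ig 1.

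The 4 globin genes, Alas2 and the anion exchanger gene Slc4a1 formed 1 block, put together after the values were seen, with Pearson's r of log2 CPM between 0.83 and 0.99 over its 15 gene pairs (n = 8 libraries). Within a library, Hbb-bs exceeded Hbb-bt 3.79-fold to 4.37-fold per kilobase of exon. Hba-a1 exceeded Hba-a2 1.14-fold to 1.49-fold. These ratios are uncertain, because 80.8% of the 76-base windows of Hba-a2 also occur in Hba-a1 and 55.7% of those of Hbb-bs in Hbb-bt. Of the windows of Alas2, 11.7% also occur in Apex2.

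The regulators of the lineage did not follow the globins. Epor, the erythropoietin receptor, stood at 30.72, 45.61, 36.9 and 32.94 CPM in controls and 44.97, 51.47, 45.89 and 32.67 CPM in LTβR-Ig libraries. Gata1 lay between 109.2 and 156.4 CPM and Klf1, a globin gene activator, between 47.95 and 75.61 CPM. Their 18 pairs with the globin block had r between -0.33 and 0.10, with a median of -0.18, so control 3, the library with the most globin, held levels of all 3 inside the range of the other libraries. Per kilobase, Hbb-bs exceeded Gata1 150-fold in LTβR-Ig 1 and 555-fold in control 3.

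None of the 9 erythroid members differed between the groups. The smallest p was that of Epor, with a log2 fold change of LTβR-Ig over control of 0.26 (SE 0.19, 95% confidence interval -0.17 to 0.69, edgeR adjusted p = 0.992). Alas2 had -0.08 (SE 0.37, 95% confidence interval -0.92 to 0.76, edgeR adjusted p = 1.0). The median over the 9 was -0.10, with 2 higher and 7 lower, beside a median of 0.00 over all genes tested.

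A wider list of 22 other erythroid genes gave 16 that correlated best with the erythroid sum. Slc25a37, the mitochondrial iron importer, had r of 0.99 with it. Car1, carbonic anhydrase 1, ran the other way with r of -0.75, and Tspo2 had 0.11. For Tspo2, Tfrc, Car1 and Rhd the log2 fold changes were -0.49, -0.34, -0.32 and -0.13 (edgeR adjusted p = 0.672, 0.877, 1.0 and 1.0). No gene of the list passed over all genes, and 1 of 22 had an unadjusted p under 0.05, beside 6.32% of all genes.

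Megakaryocyte genes had the highest median correlation of the 5 whole lineages, although the globin block and the granule protein genes described here were tighter within theirs. Ppbp, the platelet basic protein precursor, stood at 291.8, 312.5, 726.5 and 1382 CPM in controls and 516.2, 1102, 1980 and 690.3 CPM in LTβR-Ig libraries. Pf4, platelet factor 4 (ENSMUSG00000029373.7, chromosome 5, 90772435 to 90773383), stood at 174.6, 153.5, 364.8 and 610.6 CPM in controls and 169.5, 484.8, 903.5 and 399.1 CPM in LTβR-Ig libraries. Both were highest in LTβR-Ig 3 and next highest in control 4, and the groups overlapped.

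Gp5, a subunit of the platelet receptor for von Willebrand factor, stood at 4.089, 4.213, 4.798 and 13.78 CPM in controls and 2.415, 18.68, 22.91 and 10.35 CPM in LTβR-Ig libraries. Control 4 thus lay well above the other control libraries. The 36 pairs among the 9 genes, which include the receptor subunits Gp9, Gp1ba and Gp1bb, the integrin chains Itga2b and Itgb3 and the platelet receptor Treml1, had r between 0.80 and 0.99 with a median of 0.91. All 9 correlated best with the sum of the other megakaryocyte members, at 0.88 to 0.98. Gp1bb is uncertain, since 87.8% of its 76-base windows also occur in Sept5.

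All 9 had positive log2 fold changes, from 0.36 to 1.02 with a median of 0.59, and none passed the test. Since the genes moved together, these are not 9 separate results. Gp5 had 1.02 (SE 0.68, 95% confidence interval -0.52 to 2.55, edgeR adjusted p = 0.970) and Pf4 had 0.59 (SE 0.56, 95% confidence interval -0.68 to 1.86, edgeR adjusted p = 1.0). The summed level was 1324 ± 933 CPM in controls and 2036 ± 1171 CPM with LTβR-Ig (SD over 4 libraries each), a ratio of 1.54. The ratio was 2.27 without control 4 and 1.13 without LTβR-Ig 3, and without control 4 the genes Gp1ba, Gp1bb, Gp5, Itgb3, Ppbp and Treml1 had unadjusted p-values under 0.05 but none passed over all genes.

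Of 16 other megakaryocyte genes, 15 had positive log2 fold changes, and 13 correlated best with the megakaryocyte sum. They too are not separate results. The 2 most abundant, Plek and Fermt3, which act in platelet activation, had 0.49 and 0.33 (edgeR adjusted p = 1.0 each). Rasgrp2, a platelet exchange factor for Rap1, had 0.48 (edgeR adjusted p = 0.767). Gfi1b, a repressor shared by the erythroid and megakaryocyte lineages, had -0.34 (edgeR adjusted p = 0.796). It was the 1 gene of the list whose groups did not overlap, beside 4.89% of all genes, with every LTβR-Ig library below every control library.

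**Figure D2:**
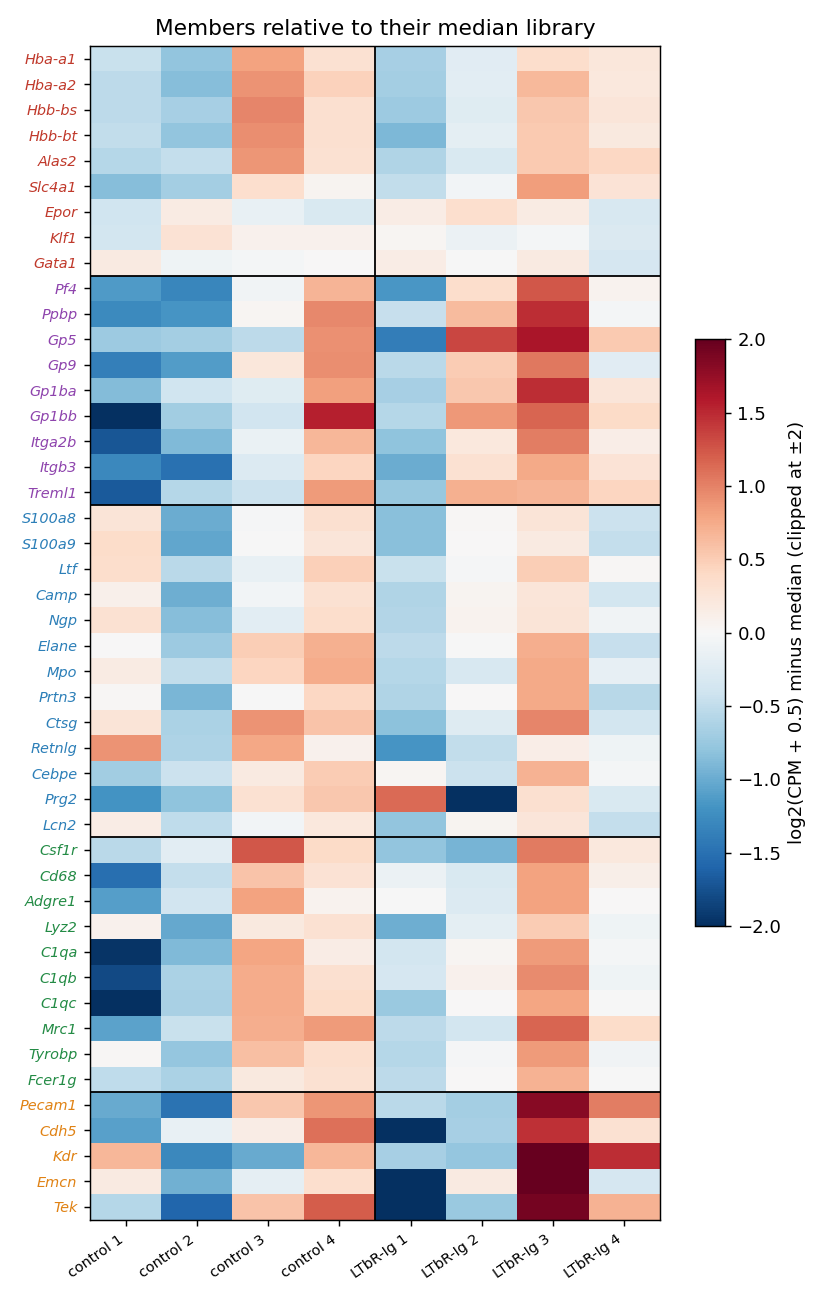
Each member's log2(CPM + 0.5) minus its median over the 8 libraries, clipped at 2 in either direction, with rows ordered by lineage and columns by library. Megakaryocyte and endothelial rows are dark in LTβR-Ig 3 and pale or blue in control 2 and LTβR-Ig 1, while Epor, Klf1 and Gata1 change little across libraries.

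Granule protein genes led the granulocyte lineage. Ngp, neutrophilic granule protein, stood at 3105, 1394, 2176 and 3192 CPM in controls and 1671, 2643, 2996 and 2391 CPM in LTβR-Ig libraries. S100a8, a calcium-binding protein of the neutrophil cytosol (ENSMUSG00000056054.9, chromosome 3, 90668978 to 90670035), stood at 1926, 802.3, 1580 and 2001 CPM in controls and 900.9, 1630, 1912 and 1186 CPM in LTβR-Ig libraries. Unlike the globin and megakaryocyte genes, both were high in control 1.

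Most of the genes were grouped by stage after the values were seen. Retnlg and Cebpe, with r of 0.63 and 0.49 with the sum of the other granulocyte members, were left out, as was Prg2. Over the 66 pairs of granulocyte members without Prg2, r lay between 0.03 and 0.99 with a median of 0.82. The secondary granule and S100 genes (S100a8, S100a9, Ltf, Camp, Ngp and Lcn2) had r of 0.85 to 0.99 among themselves, and the primary granule genes of earlier precursors (Elane, Mpo, Prtn3 and Ctsg) had 0.86 to 0.95. Between the sets r lay between 0.67 and 0.94, which overlaps the ranges within them. Per kilobase, Elane stood at 0.211 to 0.448 of Ngp, a 2.12-fold range, whereas S100a8 kept to 1.35 to 1.54 times S100a9. Control 1 had the second lowest ratio of Elane to Ngp and control 3 the highest.

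Prg2, the eosinophil major basic protein, stood apart. It had 255.9, 332.9, 722.1 and 844.6 CPM in controls and 1288, 52.28, 732.1 and 472.2 CPM in LTβR-Ig libraries. LTβR-Ig 1, among the lowest for neutrophil genes, was the highest for Prg2, and LTβR-Ig 2 was by far the lowest. Over its 12 pairs with the other granulocyte members r lay between -0.25 and 0.66 with a median of 0.00, while Epx, eosinophil peroxidase and no member, had r of 0.96 with it. The ratio of Prg2 to Ngp per kilobase ranged 39.0-fold, from 0.0288 to 1.12.

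Retnlg, a resistin-like protein of mature neutrophils, had the smallest p of all 46 members. It stood at 178.8, 61.82, 163.1 and 101 CPM in controls and 41.88, 67.87, 104.3 and 89.89 CPM in LTβR-Ig libraries. Its log2 fold change was -0.73 (SE 0.37, 95% confidence interval -1.58 to 0.11, edgeR adjusted p = 0.876), and control 2 lay below 3 of the 4 LTβR-Ig libraries. S100a8 had -0.16 (SE 0.31, 95% confidence interval -0.88 to 0.55, edgeR adjusted p = 1.0). Over the 13 members the median was -0.16, with 3 higher and 10 lower.

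Among 17 other granulocyte genes, 12 had negative log2 fold changes and none passed over all genes. Mmp8 and Mmp9, collagenase and gelatinase of late neutrophil granules, had -1.05 (SE 0.31, edgeR adjusted p = 0.478) and -0.90 (SE 0.34, edgeR adjusted p = 0.683). They were the 2 of 17 with an unadjusted p under 0.05, beside 6.32% of all genes. The most abundant, Chil3 and Fcnb, had 0.07 and -0.19 (edgeR adjusted p = 1.0 each).

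The macrophage members did not share a single pattern. Lyz2, lysozyme of neutrophils, monocytes and macrophages alike, stood at 1178, 549.1, 1283 and 1377 CPM in controls and 566.9, 970.7, 1592 and 1055 CPM in LTβR-Ig libraries. C1qa, a chain of complement C1q made by tissue macrophages (ENSMUSG00000036887.5, chromosome 4, 136895917 to 136898803), stood at 10.41, 22.71, 72.94 and 46.81 CPM in controls and 32.75, 43.23, 76.85 and 41.19 CPM in LTβR-Ig libraries. Control 1 was the lowest library for C1qa but had 1178 CPM of Lyz2, above 4 of the other 7 libraries.

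Grouped after the values were seen, 7 tissue macrophage genes (C1qa, C1qb, C1qc, Cd68, Adgre1, Mrc1 and the receptor gene Csf1r) had r of 0.67 to 0.99 among themselves. With the globin block their median r was 0.80, and with the secondary granule and S100 genes 0.21. C1qa, C1qb, C1qc and Cd68 correlated best with the megakaryocyte sum (0.82, 0.84, 0.83 and 0.77). Their values with the erythroid sum were 0.78, 0.77, 0.81 and 0.75. Csf1r, Adgre1 and Mrc1 correlated best with the erythroid sum (0.88, 0.78 and 0.88). Lyz2 and the adaptor genes Tyrobp and Fcer1g, which many myeloid cells share, had a median of 0.80 with the secondary granule and S100 genes. Of these 3, only Lyz2 correlated best with the granulocyte sum (0.92). Fcer1g correlated best with the megakaryocyte sum (0.95), against 0.73 with the granulocyte sum. Tyrobp had 0.88 with the erythroid and 0.87 with the granulocyte sum. Only Tyrobp of the 10 macrophage members correlated best with the sum of its own lineage, in which Lyz2 made up 53.3%. C1qb held 4.68 to 5.79 times the level of C1qa per kilobase in every library. Of the 76-base windows of Csf1r, 15.9% also occur in Hmgxb3.

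None of the 10 differed between the groups. Fcer1g, the member with the smallest p, stood at 144.3, 131.4, 234.5 and 253 CPM in controls and 141.4, 205.7, 329.6 and 202.9 CPM in LTβR-Ig libraries, with a log2 fold change of 0.20 (SE 0.30, 95% confidence interval -0.47 to 0.88, edgeR adjusted p = 1.0). C1qa had 0.34 (SE 0.54, 95% confidence interval -0.88 to 1.57, edgeR adjusted p = 1.0). The median was 0.18, with 8 higher and 2 lower. Of 16 other macrophage genes, 11 had positive and 5 negative values, and none passed over all genes. Cybb, a subunit of the phagocyte oxidase, had -0.72 (edgeR adjusted p = 0.766), Cd14 0.36 (edgeR adjusted p = 0.928) and the protease gene Ctss 0.02 (edgeR adjusted p = 1.0).

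Endothelial transcripts were scarce. Pecam1, which encodes CD31, stood at 5.83, 4.045, 17.94 and 22.83 CPM in controls and 8.233, 7.434, 44.39 and 25.29 CPM in LTβR-Ig libraries. Cdh5, which encodes CD144 (ENSMUSG00000031871.9, chromosome 8, 104101625 to 104144511), stood at 3.179, 6.549, 8.098 and 16.16 CPM in controls and 1.167, 4.396, 20.93 and 9.125 CPM in LTβR-Ig libraries. Kdr, a receptor for vascular endothelial growth factor, stood at 10.57, 2.366, 2.997 and 10.58 CPM in controls and 3.922, 3.585, 41.14 and 18.93 CPM in LTβR-Ig libraries. LTβR-Ig 3 held the highest level of all 3 genes.

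Tek had 0 counts in LTβR-Ig 1, which allows up to 0.049 CPM (3 counts, counting error only), and 22.04 CPM in LTβR-Ig 3. The 10 pairs among the 5 genes had r of 0.57 to 0.92. All 5 log2 fold changes were positive, from 0.07 for Cdh5 to 1.35 for Kdr (SE 0.86, 95% confidence interval -0.60 to 3.30, edgeR adjusted p = 0.952), and none passed. These are not 5 separate results, since the genes moved together. The summed level was 41.0 ± 23.0 CPM in controls and 67.0 ± 65.6 CPM with LTβR-Ig (SD over 4 libraries each), a ratio of 1.64, which was 0.886 without LTβR-Ig 3.

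Of 17 other endothelial genes tested, 15 had positive values and none passed over all genes. All 17 had r above 0 with the endothelial sum, with a median of 0.76, so they are not separate results. Eng and Esam, the most abundant, had 0.19 and 0.68 (edgeR adjusted p = 1.0 each), and Robo4 had 1.24 (edgeR adjusted p = 0.959). Ecscr had -2.17 (SE 1.08, edgeR adjusted p = 0.869), with LTβR-Ig libraries at 0 to 4.867 CPM and control libraries at 9.217 to 17.21 CPM.

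**Figure D3:**
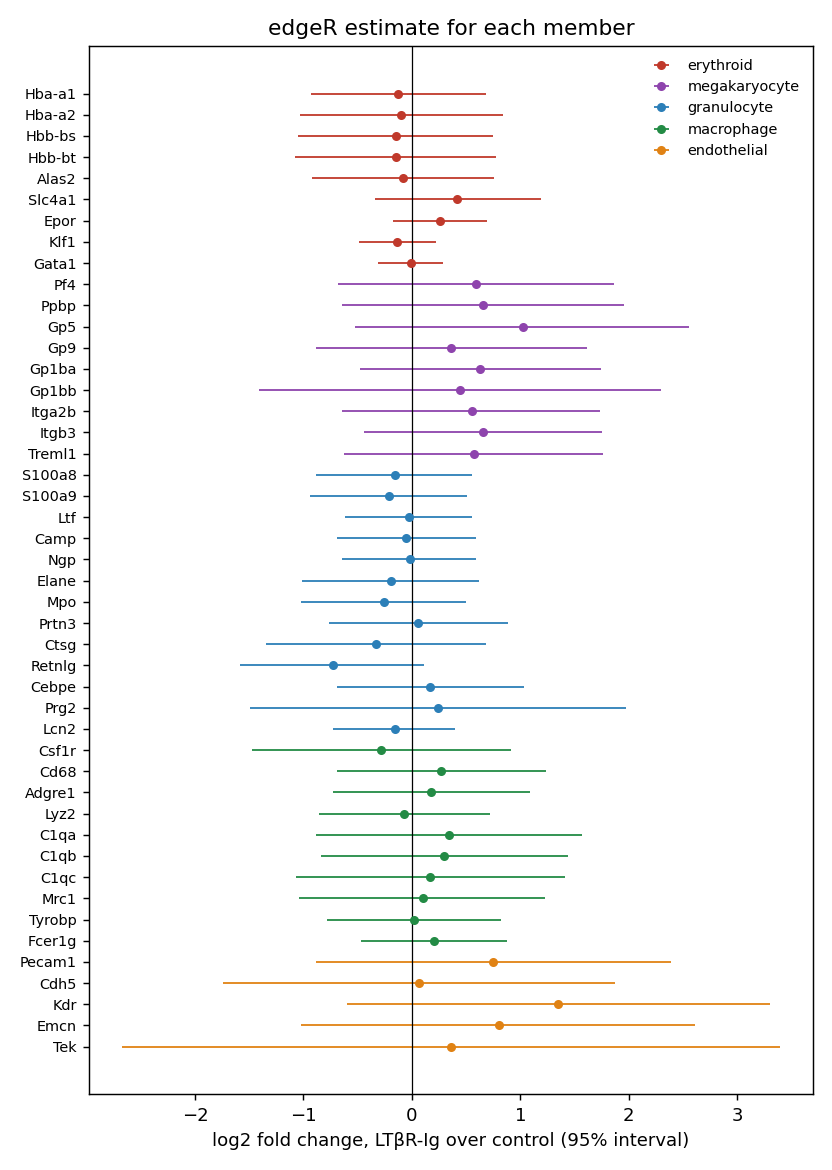
The edgeR log2 fold change of each member, LTβR-Ig over control, with its 95% confidence interval (bars), coloured by lineage. All 46 intervals include 0, and that of Tek is the widest.

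Over all lineages, 0 of 46 members passed the adjusted threshold in edgeR, beside 0.0374% of all genes. At an unadjusted p under 0.05 there were also 0 of 46, beside 6.32% of all genes, and 0 of 46 had groups that did not overlap, beside 4.89%. DESeq2, which called 339 genes in all, and limma-voom, which called 17, also called 0 members, with 0 at an unadjusted p under 0.05 in each. Higher estimates were found for 27 members and lower ones for 19, with a median of 0.13. The wide intervals, such as that of Kdr, do not show that the levels were alike.

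Genes of the antigens used in the gate were read in the same libraries. Ptprc, which encodes CD45, stood at 53.46, 21.72, 52.64 and 61.08 CPM in controls and 39.85, 41.7, 57.58 and 41.05 CPM in LTβR-Ig libraries. Ptprc was lowest in control 2, as the granulocyte sum was, and the groups overlapped.

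Per kilobase, Ptprc stood at 0.00191 to 0.00702 of Lepr, Pecam1 at 0.00105 to 0.0159 and Cdh5 at 0.00049 to 0.0111. Lepr itself stood at 4270, 4372, 4297 and 4282 CPM in controls and 3993, 3977, 3159 and 4498 CPM in LTβR-Ig libraries. The lowest Lepr level was in LTβR-Ig 3, the library with the most endothelial, macrophage and megakaryocyte transcripts.

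Across the 8 libraries every pair of lineage sums was positively related. The points share library, depth and composition, so these values are descriptions. Macrophage and erythroid sums were the closest pair, with Pearson's r of 0.92 and Spearman's rho of 0.98. The erythroid sum followed the globin genes, since Hbb-bs alone made up 47.3% of it. Epor, Klf1 and Gata1 had r of -0.21, -0.15 and 0.07 with the macrophage sum. Over the 36 pairs of erythroid members the median r was 0.08. Macrophage and endothelial sums came next at 0.90 and 0.88. The weakest pairs were erythroid with granulocyte (0.61 and 0.69) and megakaryocyte with granulocyte (0.63 and 0.55). Between single members of different lineages the median r ran from 0.47 for granulocyte with macrophage to 0.78 for erythroid with macrophage genes. The lowest of these pairs, an erythroid with a granulocyte gene, had -0.66. Over all pairs of single genes tested the median r was 0.00, which is a background for single genes and not for sums.

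Taking deviations from the group means left the order much the same, with 0.93 for macrophage and erythroid and 0.61 for erythroid and granulocyte sums. Without the 2 libraries farthest from the median of the first-named lineage, the erythroid and macrophage value was 0.94. The megakaryocyte and granulocyte value was 0.92 without LTβR-Ig 3 and control 1, and 0.93 without control 1 alone. Control 1 combined the lowest megakaryocyte sum with the third highest granulocyte sum.

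**Figure D4:**
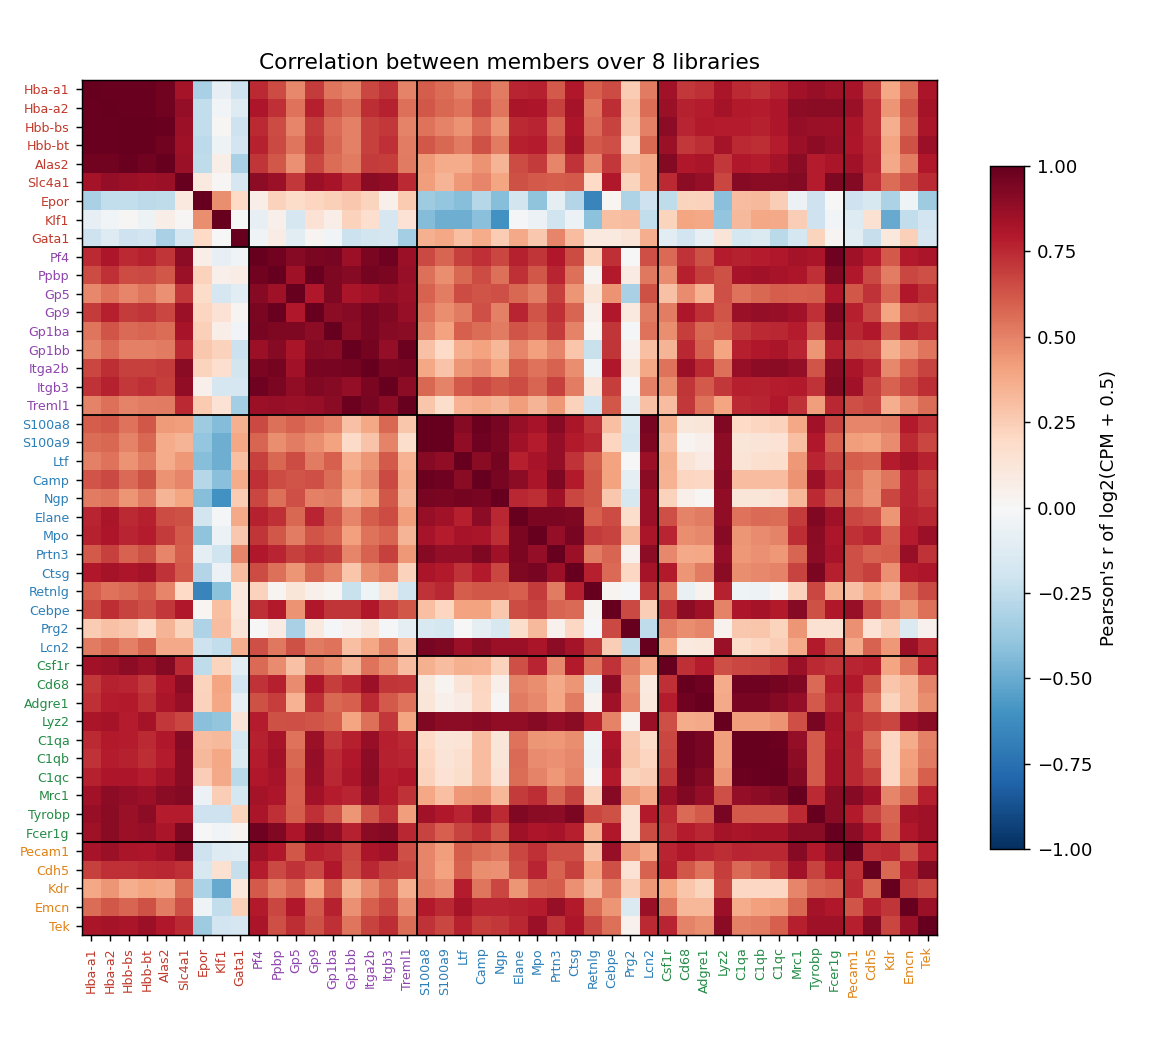
Pearson's r of log2(CPM + 0.5) over the 8 libraries for every pair of members, from -1 (blue) to 1 (red), with black lines between lineages. Megakaryocyte genes form a solid red block, Epor, Klf1 and Gata1 are pale against the globin genes, and the C1q genes are red with the globin genes and pale with the secondary granule genes.

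Single genes gave a test where sums did not. Over 10 pairs of 5 genes, 1 per lineage, 4 pairs had the smallest adjusted p of 0.0712 (exact permutation, two-sided, n = 8, Benjamini-Hochberg over 10 pairs), so none passed 0.05. These were Alas2 with C1qa (r = 0.80, rho = 0.83, exact permutation p = 0.0115), Alas2 with Cdh5 (r = 0.75, rho = 0.81, exact permutation p = 0.0285), Pf4 with C1qa (r = 0.77, rho = 0.79, exact permutation p = 0.0207) and Pf4 with Cdh5 (r = 0.77, rho = 0.74, exact permutation p = 0.0229). The adjusted p of rho was 0.0917 for each of them. Without the 2 libraries farthest from the median of the first-named gene r was 0.83, 0.89, 0.67 and 0.85.

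The r of S100a8 with Pf4, C1qa and Alas2 shifted most when control 1 was left out. Its r was 0.66 with Pf4 (rho = 0.69, exact permutation p = 0.0756, adjusted p = 0.126), 0.20 with C1qa (rho = 0.33, exact permutation p = 0.654, adjusted p = 0.654), 0.42 with Alas2 (rho = 0.21, exact permutation p = 0.279, adjusted p = 0.31) and 0.49 with Cdh5 (rho = 0.36, exact permutation p = 0.22, adjusted p = 0.276). Without control 1 these values were 0.94 with Pf4, 0.82 with C1qa, 0.66 with Alas2 and 0.66 with Cdh5 (exact permutation, adjusted p = 0.0258, 0.0709, 0.135 and 0.135). Each library was left out in turn, and control 1 is shown because these shifts were seen. The value with Cdh5 did not depend on control 1 in particular, at 0.65 without control 2 and 0.19 without LTβR-Ig 1. Control 1 held 1926 CPM of S100a8 and the lowest level of C1qa. Without control 2 and LTβR-Ig 1 the value with C1qa was -0.17.

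By the member counts, 26 of 46 genes correlated best with the sum of the other members of their own lineage. These were 9 of 9 megakaryocyte, 8 of 13 granulocyte, 5 of 9 erythroid, 3 of 5 endothelial and 1 of 10 macrophage genes. Cebpe, a granulocyte transcription factor, had its highest value with the megakaryocyte sum (0.78), and Elane, Mpo and Ctsg with the macrophage sum (0.91, 0.90 and 0.90). Among 9365 genes outside the set with a symbol and a mean of at least 10 CPM, 5.83% had r above 0.7 with the erythroid sum and 3.14% with the granulocyte sum.

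Outside the set, the genes most like each lineage sum were found from deviations from the group means over the 8 libraries. For the erythroid sum they were Hbq1b, Slc25a37, Ube2o, Apol11b and Tmcc2, with r of 0.984 to 0.992. For the megakaryocyte sum they were Men1, Col11a2, Pls1, Ifitm5 and Clec1b (0.978 to 0.988), and for the granulocyte sum Plac8, Wfdc21, Gpx4, Bicd2 and Ptprc (0.962 to 0.976). For the macrophage sum they were Cd48, Ly86, Syk, Sla and Laptm5 (0.983 to 0.988), and for the endothelial sum Iqgap2, Ramp1, Nfam1, Gpm6a and Ms4a6c (0.971 to 0.988).

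Other features of the libraries moved with these levels. Total counts had r of -0.31 with the granulocyte sum to -0.62 with the megakaryocyte sum, and the 3 deepest libraries were control 1, control 2 and LTβR-Ig 1. The first principal component of all genes, which held 19.5% of the variance, had r of 0.65 to 0.94. The summed stromal markers had r of -0.67 to -0.84 with the 5 lineages.

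The osteoblast genes Bglap and Col1a1 went with the members, and the immunoglobulin genes Ighm and Jchain went against them. Ibsp, the most abundant osteoblast gene of the list at 5610 to 16746 CPM, had r of -0.16 to 0.08 with the 5 sums and was left out of the osteoblast sum after its values were seen. The summed osteoblast markers without Ibsp had r of 0.52 with the granulocyte and 0.95 with the megakaryocyte sum. Most of the osteoblast sum was Col1a1, the main collagen gene of bone. It ranged from 689.4 CPM in control 1 to 6731 CPM in LTβR-Ig 3. Sp7 and Alpl of the same list were highest in LTβR-Ig 3. They were next highest in LTβR-Ig 1 (35.98 and 543.7 CPM), which was low in all 5 lineages. Ighm had r of -0.51 to -0.81 and Jchain -0.51 to -0.71. These genes made up most of a B lineage sum with r of -0.59 to -0.86, but B lineage genes did not share a single pattern. Cd79b, a B cell receptor chain, was highest in control 1 at 51.18 CPM, as Ighm was at 2526 CPM. Cd79b was next highest in LTβR-Ig 3 at 42.78 CPM, where Ighm stood at 364.5 CPM and Jchain was lowest at 76.11 CPM. Jchain was highest in control 2 at 1171 CPM, where Cd79b was lowest at 13.36 CPM. The part of these features in the levels of the members was not tested.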

How the data were processed

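The authors deposited raw counts, whole numbers of reads per gene with no normalization, in 1 matrix for 8 libraries of polyA RNA read as pairs of 76 bases. Alignment with HISAT2 and counting with HTSeq on mm10 are named in the submitters' processing notes. Their versions, the gene models and the strandedness were not given in the sources used here, and overlapping genes on opposite strands could not be separated. Groups and replicate numbers came from the sample titles. Symbols and coordinates came from GENCODE M21, which matched 52403 of 52636 gene IDs.

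Differential expression was tested on the whole table with edgeR 4.0.16 (R 4.3.3). TMM scaled the libraries, filterByExpr kept genes by group (minimum count 10, minimum total 15), and glmQLFit was robust. P-values were adjusted by Benjamini-Hochberg with a threshold of 0.05. Correlations used log2(CPM + 0.5) for single genes and log2 sums for lineages, with Python 3.11.15 and scipy 1.17.1. The tested pairs of representative genes used log2 CPM with nothing added. Exact permutation tests ran over all pairings of the 8 libraries. Lineage sums, being scores over members, were given no test. The edgeR test was checked on simulated counts. No pair of replicates agreed within sampling noise (chi-square per degree of freedom of 139.8 or more), so all 8 libraries were kept.

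Values in every library are given for 1 representative gene per lineage, the most abundant member, the member with the smallest p and the gate antigens, of which 1 is not reported here. From each wider lineage list the 2 smallest p-values and 2 highest means are named, and for each sum the 5 closest genes with a mean of at least 10 CPM. Prg2, Tek and other genes outside this rule were chosen after their values were seen. The members and lists were chosen with earlier results of these data known. Alternatives were other size factors, DESeq2 1.42.0, limma-voom (limma 3.58.1), other filters, the replicate number as a block, other sums and scalings, and leaving out each library.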

Additional observations from a re-analysis of the deposited data

Results flagged for a closer look

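Gp5 in control 4, at 13.8 CPM, stood apart from the other control libraries, which lay between 4.09 and 4.80 CPM. It was the 1 value that did so among 102 pairs of a value and a group looked at, and chance marks about 1 group in 20. The other 8 megakaryocyte members were also at their highest control level in control 4.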

How the results depend on the processing

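No member passed over all genes under any setting run, from other size factors, tests and filters to leaving out each library. The number of genes called was 6, and it was 339 by the DESeq2 Wald test, 17 by limma-voom and 22 with the stricter filter on low counts. It ranged from 2 without control 3 to 9 when each library was left out in turn. With a replicate block it was 1. The series describes 4 pairs without saying what a pair shares, and the replicate numbers were not shown to pair the libraries: r between same-numbered libraries was 0.106, 0.056, 0.084 and -0.001, and control 2 correlated best with LTβR-Ig 1 (0.144). Unadjusted p-values were under 0.05 for Pecam1 and Slc4a1 under the block, Retnlg without control 2, Gp5 without LTβR-Ig 1, Ctsg without LTβR-Ig 3 and the 6 megakaryocyte genes named above without control 4. The sign of an uncalled member fold change differed in 69 values and held in 621. Lineage correlations that moved were erythroid with endothelial (0.95 without the 2 farthest libraries, 0.71 to 0.96 leaving out each library), megakaryocyte with granulocyte (0.92, and 0.46 to 0.93) and erythroid with megakaryocyte (0.62 to 0.89 leaving out each library). Without the most abundant member, granulocyte with macrophage gave 0.57 and macrophage with endothelial 0.67, and the latter was 0.74 with a mean of log2 CPM. Among single genes, deviations from group means gave 0.86 for Alas2 with C1qa and 0.88 for Pf4 with Cdh5 (exact permutation, adjusted p = 0.0222 each). These deviations share their group means, so that p is approximate. Pf4 with S100a8 ranged from 0.52 to 0.94 leaving out each library, the highest without control 1 (exact permutation adjusted p = 0.0258), and S100a8 with C1qa from 0.00 to 0.82, also highest without control 1 (adjusted p = 0.0709), and -0.17 without the 2 farthest libraries. The causes of these shifts were not tested. The spread over 4 libraries a group limits precision, and depth limits the value of Tek in LTβR-Ig 1, at 0 counts.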

Other observations

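Mast cell and basophil genes, described in none of the comparisons above, had negative log2 fold changes in 6 of 6 cases, beside 8065 of 16045 genes tested. The median was -1.60 and the range -2.27 to -0.60, with SEs from 0.97 for Gata2 to 1.88 for Ms4a2. Levels were near the floor, with means of 5.204 CPM or less for all but Prss34. Cpa3, Mcpt8, Ms4a2 and Prss34 stood at 0 CPM in LTβR-Ig 2, so the 6 are not separate results. Ms4a2 was also at 0 in control 3 and LTβR-Ig 3, and Fcer1a was at 0 in control 4. Gata2 stood at 8.163 CPM in control 1 and at 0.5118 to 1.231 CPM in the other controls. In LTβR-Ig libraries Gata2 had 0.5672 to 1.869 CPM, so its negative value rested on control 1. Prss34 was also highest in control 1, at 76.82 CPM. None passed over all genes or had an unadjusted p under 0.05 in edgeR. Their summed level lay between 16.3 and 103 CPM in control and between 1.06 and 41.1 CPM in LTβR-Ig libraries, and the groups overlapped. Of the T and NK cell genes, Nkg7, at 28.17 to 96.07 CPM, carried most of the summed level and had r of 0.93 with the granulocyte sum. Cd3d, Cd3e, Cd3g and Trac lay at 2.235 CPM or below in every library.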
